A study of Mus musculus with 28 samples.

Results

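Keratins are the proteins of the intermediate filaments of epithelial cells, and 42 keratin genes were listed in at least 1 of the 5 tables of a study of ageing hair follicle stem cells. They were every gene whose symbol is Krt followed by a number and at most 1 letter, out of 18274 symbols in the 5 tables. The cells were freshly isolated from mouse skin with trypsin and sorted by flow cytometry for the surface proteins CD34 and alpha6 integrin, which together mark stem cells of the follicle bulge. The old mice were 24 months of age and the young mice 6 months, both of the strain labelled 132-C67BL/6J, and no genetic change or treatment is named. RNA was sequenced in 3 old and 3 young samples, and open chromatin was measured by ATAC-seq in 4 old and 4 young samples. ChIP-seq was done for H3K27me3, the repressive histone mark of Polycomb, in 3 old and 3 young samples. ChIP-seq for H3K4me3, which marks promoters in use or ready for it, and for RNA polymerase II (Pol2) used 2 old and 2 young samples each.

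A keratin filament is built from pairs of an acidic type I and a basic type II keratin, and an epithelial cell changes the pair it makes as it differentiates. In skin, basal keratinocytes use Krt5 and Krt14, cells that leave the basal layer switch to Krt1 and Krt10, and the stem cells of the bulge are known for Krt15. Krt6, Krt16 and Krt17 are made in the follicle and are induced in the epidermis by wounding, and a further group of cysteine-rich keratins forms the hair shaft. The genes lie in a pair of clusters. Of the 42 listed keratins, 19 were on chromosome 11, where the type I genes sit, and 23 on chromosome 15, which holds the type II genes and Krt18.

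The 42 were sorted by their known place of expression into 1 bulge, 2 basal, 6 suprabasal epidermal, 4 mucosal or corneal, 4 stress, 7 companion layer and inner root sheath, 8 hair shaft, 4 simple epithelial and 6 other keratins. Most were seen in few assays: 22 were listed in 1 table, 19 in 2 tables and 1 in 3 tables. Of the 54 keratins in the RefSeq table, 12 were in none of the deposited tables. The RNA table lists only genes that came near to differing between the ages, and it held 1 keratin. The ATAC-seq table, also limited to peaks that differed, held 10 peaks whose nearest gene was given as 1 of 8 keratins. None of these peaks lay within the RefSeq span of the keratin it was named for. H3K27me3 had 66 peaks annotated to 24 keratins, H3K4me3 36 peaks at 23 keratins, and Pol2 7 peaks at 7 keratins. The sorted cell type was checked against its markers. All 9 genes of a stem cell marker list (Krt15, Cd34, Itga6, Sox9, Lhx2, Lgr5, Tcf7l1, Nfatc1, Tbx1) had an H3K4me3 peak at the promoter in the authors' deposited table, and 8 of them had a Pol2 peak there. The same was so for H3K4me3 at 2 of 5 interfollicular, 2 of 4 sebaceous, 0 of 6 immune, 1 of 4 melanocyte, 2 of 4 fibroblast and 1 of 3 endothelial markers, none of which had a Pol2 promoter peak. In the RNA list, the immune marker Cd74, the invariant chain of MHC class II, was lower in old cells at a log2 fold change of -1.36 (adjusted p 2.36e-06, DESeq2) in the authors' deposited table, and it was the one marker of the other cell types listed there.

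Promoter sequences of 5 keratins are given because their peaks carry the chromatin results described next. Each is the 200 bases before the start site in RefSeq on GRCm38, read on the strand of the gene, with the letters TATAA in capitals where they begin 40 to 20 bases before the start, the usual place of a TATA box. The Krt5 (chr15:101712906-101713105, minus strand), Krt24 (chr11:99285263-99285462, minus strand) and Krt28 (chr11:99374904-99375103, minus strand) promoters lay inside H3K4me3 peaks. The Krt18 promoter (chr15:102028016-102028215, plus strand) lay inside the widest H3K27me3 domain of any keratin, and the Krt20 promoter (chr11:99438154-99438353, minus strand) lay across the edge of an H3K27me3 domain.
Krt5: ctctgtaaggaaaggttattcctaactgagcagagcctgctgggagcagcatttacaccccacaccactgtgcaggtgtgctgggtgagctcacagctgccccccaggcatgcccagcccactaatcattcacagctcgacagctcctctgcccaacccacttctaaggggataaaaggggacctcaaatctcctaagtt
Krt24: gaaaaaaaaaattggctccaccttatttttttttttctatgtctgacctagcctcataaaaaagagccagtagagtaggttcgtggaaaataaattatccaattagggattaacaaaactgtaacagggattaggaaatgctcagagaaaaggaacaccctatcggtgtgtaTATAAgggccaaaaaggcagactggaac
Krt28: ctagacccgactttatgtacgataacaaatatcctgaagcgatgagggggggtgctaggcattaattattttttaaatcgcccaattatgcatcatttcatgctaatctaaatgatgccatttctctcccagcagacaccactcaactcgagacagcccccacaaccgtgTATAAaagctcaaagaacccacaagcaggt
Krt20: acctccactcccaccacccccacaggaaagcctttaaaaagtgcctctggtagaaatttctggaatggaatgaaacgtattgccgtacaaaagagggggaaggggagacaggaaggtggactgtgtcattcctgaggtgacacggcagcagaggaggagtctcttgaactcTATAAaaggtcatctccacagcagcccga
Krt18: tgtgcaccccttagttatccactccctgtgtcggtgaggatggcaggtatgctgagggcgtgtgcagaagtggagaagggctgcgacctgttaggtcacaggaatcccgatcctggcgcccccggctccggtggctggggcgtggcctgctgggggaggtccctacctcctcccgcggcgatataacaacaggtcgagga

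Promoters in the RefSeq table could be matched for 26 of the 42 keratins, and Krt15, Krt16, Krt17 and Krt6a were not among them. The start sites used for Krt2, Krt10, Krt12, Krt14 and Krt78 are not at the edge of the RefSeq gene span. Their windows lie within that span and may not be the promoter in use. TATAA, searched on the strand of the gene, began 40 to 20 bases before the start in 12 of the 26 (46.2%), against 804 of 17491 protein-coding promoters (4.60%). The longer TATAAA began there in 9 of 26 keratins (34.6%), against 2.84% of all promoters; every such promoter is also counted for TATAA. A GC box with the letters GGGCGG, searched on both strands of the 250 bases before the start, was in 1 of 26 keratin promoters (3.85%) and in 42.7% of all promoters. The AP-1 motif TGANTCA, searched in the same way, was in 1 of 26 (3.85%) and in 6.22% of all. The printed Krt5 promoter has no TATAA in the window, and that of Krt18 has the letters just outside it, nearer to the start. These matches describe the letters in these windows.

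The bulge, basal and stress keratins Krt15, Krt5, Krt14, Krt17 and Krt6a each had a broad H3K4me3 peak over the promoter, a Pol2 peak, and no H3K27me3 peak anywhere in the gene. Krt24 shared this pattern, and Krt80 had a broad H3K4me3 peak without a Pol2 peak. The H3K4me3 peak of Krt15 (chr11:100127552-100143640) was 16.1 kb wide and covered the whole gene and part of its neighbour Krt19, and that of Krt5 (chr15:101698076-101717368) was 19.3 kb wide. The middle promoter peak of all genes measured 3.73 kb. Per length, the Krt15 peak held 874 normalized reads per kb in old cells and 2422 in young cells in the authors' deposited table, rank 47 in old and rank 26 in young of 21390 peaks. Krt5 held 792 normalized reads per kb in old cells and 2020 in young cells in the same authors' deposited table, rank 56 in old and 36 in young. Krt14 followed with 512 in old and 1288 in young, and Krt17, a keratin of the outer root sheath and of stressed epidermis, with 421 in old and 954 in young, again as normalized reads per kb in the authors' deposited table. Krt6a, its type II stress counterpart, held 252 normalized reads per kb in old and 501 in young cells in the authors' deposited table, below Krt80 with 351 in old and 829.8 in young and Krt24 with 373 in old and 589 in young cells. Krt15, the bulge keratin, was thus the highest of the keratins at both ages for H3K4me3 per length. By the log2 level of the whole peak, Krt5 stood at 13.9 in old cells and Krt15 at 13.78. Both stood at 15.25 in young cells in the authors' deposited table. No spread over samples goes with these levels, since the ChIP-seq tables give group means only.

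**Figure D1:**
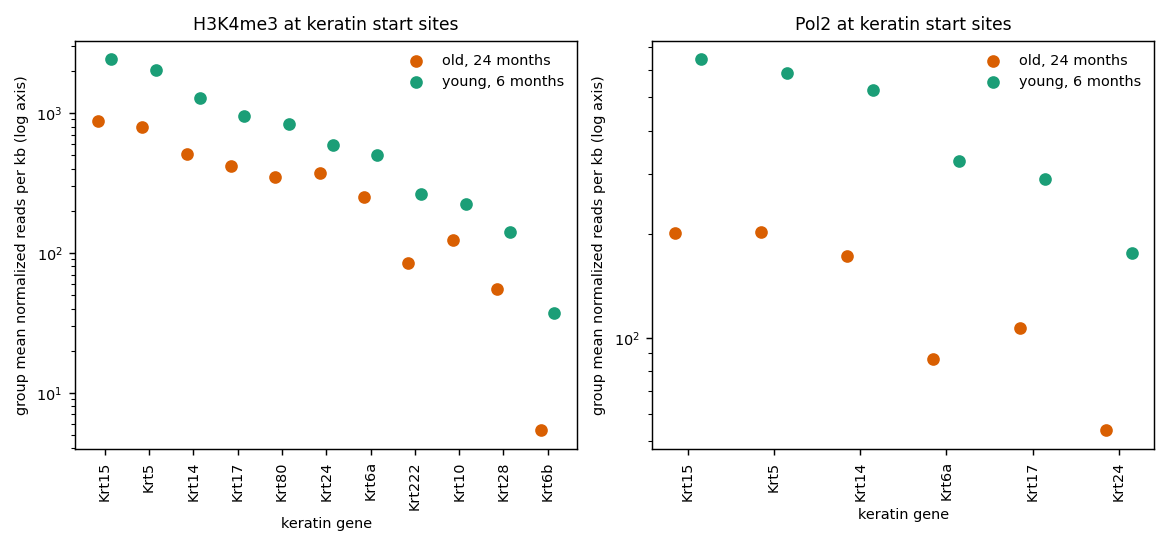
H3K4me3 (left) and Pol2 (right) at the start sites of keratin genes, as group mean normalized reads per kb of peak on a log axis, with old cells in orange left of young cells in green. Each point is the mean of a group in the authors' deposited tables; the old point lies below the young point at each of the 11 H3K4me3 and 6 Pol2 peaks, and Krt15 is the highest for H3K4me3 at 874 in old and 2422 in young.

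The H3K4me3 comparison asks whether these promoters lost the mark with age. All 11 keratin promoter peaks (those within 1 kb of a start site) were lower in old cells at a false discovery rate (FDR) under 0.05 in the authors' deposited table, as were 94.3% of the promoter peaks of all genes. None was higher, at the FDR or at an unadjusted p under 0.05, beside 0.037% of all promoter peaks in the authors' deposited table. The count lies near that background and sets keratins apart in no way. The median log2 fold change of old over young was -1.33 over keratin promoter peaks and -1.42 over all promoter peaks in the authors' deposited table. Krt15 had a log2 fold change of -1.47 (FDR 4.55e-05) in the authors' deposited table, Krt5 of -1.35 (FDR 0.000184) and Krt14 of -1.33 (FDR 1.56e-05). These log2 folds of the bulge and basal keratins all lay close to the median of all promoters.

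Among the stress keratins, Krt17 had a log2 fold change of -1.19 (FDR 0.000323) and Krt6a of -0.98 (FDR 0.000999) in the authors' deposited table, both smaller in size than the median promoter. Krt6b, the near copy of Krt6a, had a narrow peak of 0.516 kb with a log2 level of 1.48 in old and 4.25 in young cells in the authors' deposited table, a fold change of -2.76 (FDR 0.0105) at a low level. Reads that match Krt6a and Krt6b equally may be split between them, so the values of both are uncertain to that extent. Krt10, the suprabasal partner of Krt1, had a lower peak too, with log2 levels of 8.56 in old and 9.41 in young cells and a fold change of -0.85 (FDR 0.0115) in the authors' deposited table. A neighbouring H3K4me3 peak with no gene name lay over Krt10 as well (chr11:99384072-99388867), at a log2 fold change of -1.07 (FDR 0.000884) in the authors' deposited table. Another with no gene name overlapped the edge of the Krt6a span (chr15:101687920-101690126). It did not pass the test, at a log2 fold change of -0.19 (FDR 0.691) in the authors' deposited table.

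The smallest fall among the 11 was that of Krt24, a type I keratin at the edge of the chromosome 11 cluster, with log2 levels of 11.68 in old and 12.34 in young cells and a fold change of -0.67 (FDR 0.0280) in the authors' deposited table. Its peak, 8.80 kb wide around the promoter printed above, stood at rank 338 of 21390 per length in old cells and at rank 3510 in young cells in the authors' deposited table. Krt80, a keratin of differentiating epithelia, had a log2 fold change of -1.24 (FDR 2.7e-05) in the authors' deposited table, and Krt222, a keratin-like gene in the same cluster as Krt24, one of -1.66 (FDR 0.000573). Krt28, an inner root sheath keratin, had the one promoter H3K4me3 peak of its group, at log2 levels of 5.85 in old and 7.21 in young cells and a fold change of -1.36 (FDR 0.00512) in the authors' deposited table. No hair shaft, mucosal or simple epithelial keratin had an H3K4me3 peak within 1 kb of its start.

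Away from start sites the mark was lower as well. Of all 36 keratin H3K4me3 peaks, 26 were lower, 0 were higher and 34 had a log2 fold change below 0 in the authors' deposited table, where 79.1% of all peaks were lower, 0.281% higher and 96.3% below 0. The largest falls were at narrow peaks. A 0.528 kb peak annotated to the mucosal keratin Krt4, which lies inside the gene Krt79, had log2 levels of 2.31 in old and 6.50 in young cells and a fold change of -4.18 (FDR 6.73e-08) in the authors' deposited table. A 0.299 kb peak near the simple epithelial keratin Krt8 had log2 levels of 2.57 in old and 6.24 in young cells and a fold change of -3.66 (FDR 5.87e-07) in the authors' deposited table. The suprabasal Krt1 and Krt78 had 4 lower peaks annotated to them, with log2 fold changes of -1.36 (FDR 0.00012) and -1.57 (FDR 0.000383) for Krt1 and of -1.61 (FDR 9.93e-05) and -2.06 (FDR 5.49e-08) for Krt78 in the authors' deposited table. The Krt1 peak at -1.57 lay inside the RefSeq span of Krt77. The Krt78 peaks were labelled distal intergenic, at -19679 and -20727 bp from its annotated start. Krt19, a keratin of the bulge and of simple epithelia, had 2 lower peaks well before its start, at -1.99 (FDR 4.32e-06) and -1.41 (FDR 0.00563) in the authors' deposited table.

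The other lower peaks were annotated to sheath and shaft keratins and to single genes. Krt71 (-1.47, FDR 4.39e-05), Krt72 (-1.36, FDR 4.93e-06) and Krt74 (-1.94, FDR 0.000163) of the inner root sheath each had 1 lower peak outside the promoter window in the authors' deposited table, given as log2 fold changes. The hair keratins Krt32 (-1.66, FDR 0.000366) and Krt86 (-1.15, FDR 0.000526) also had 1 each in the authors' deposited table. The peaks annotated to Krt72, Krt74 and Krt32 overlapped no keratin gene, and those of Krt71 and Krt86 lay inside their gene spans or across the edge. Krt42 had 1 next to the Krt17 peak at -1.09 (FDR 0.0123), and a second Krt5 peak beside the broad one was at -1.10 (FDR 0.00879), both log2 fold changes of the authors' deposited table. Krt13, the mucosal partner of Krt4, had its only peak at -0.25 (FDR 0.603), which did not pass the test in the authors' deposited table.

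Pol2 had a promoter peak at 6 keratins, which were the bulge, basal and stress keratins Krt15, Krt5, Krt14, Krt17 and Krt6a, and Krt24. Of these 5 were lower in old cells and 0 higher in the authors' deposited table, where 79.1% of all Pol2 promoter peaks were lower and 0% higher. Krt15 had a log2 level of 10.80 in old and 12.48 in young cells and a fold change of -1.68 (FDR 0.0278) in the authors' deposited table. Krt5 had 10.53 in old and 12.06 in young cells, a fold change of -1.52 (FDR 0.0456), and its partner Krt14 had 10.42 in old and 12.02 in young cells, a fold change of -1.60 (FDR 0.0476), on the log2 scale of the authors' deposited table. Krt6a had 8.18 in old and 10.09 in young cells, a fold change of -1.92 (FDR 0.00841), and Krt24 had 6.18 in old and 7.89 in young cells, a fold change of -1.71 (FDR 0.0317), on the log2 scale of the authors' deposited table. Krt17 stood at 9.37 in old and 10.80 in young cells, a log2 fold change of -1.43 that did not pass the test (FDR 0.112) in the authors' deposited table. A Pol2 peak with no gene name in the Krt6a span (chr15:101689990-101690282) did not pass either, at a log2 fold change of -1.51 (FDR 0.0626).

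The median keratin Pol2 promoter peak was lower by less than the median of all genes, with log2 fold changes of -1.64 for keratins and -2.28 for all promoter peaks in the authors' deposited table. Measured from that common shift, the keratin median was 0.64 above it for Pol2 and 0.09 above it for H3K4me3, and neither difference was tested. Per length, Pol2 stood at 201 normalized reads per kb in old and 645 in young cells at Krt15, and at 203 in old and 587 in young cells at Krt5, in the authors' deposited table. One more Pol2 peak, of 0.805 kb, was annotated to the suprabasal keratin Krt78 as distal intergenic, at -19685 bp from its annotated start. It fell inside the longer RefSeq span of that gene. The peak had a log2 level of 4.90 in old and 7.89 in young cells and a fold change of -2.99 (FDR 0.00108) in the authors' deposited table. With it, 6 of 7 keratin Pol2 peaks were lower and 0 higher, beside 52.9% lower and 0.0442% higher of all Pol2 peaks in the authors' deposited table. The sources used here do not give how reads were scaled between ages in these ChIP-seq comparisons, so a shift shared by nearly all peaks cannot be told apart from scaling.

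Many keratins of other layers lay under H3K27me3. None of the 11 keratin H3K4me3 promoter peaks overlapped an H3K27me3 peak, against 2046 of 13505 promoter peaks of all genes (15.1%). Over the RefSeq spans of the 54 keratins, 13 held H3K4me3 peaks only, 15 held H3K27me3 peaks only, 6 held both (Krt1, Krt10, Krt77, Krt78, Krt79, Krt86) and 20 held neither. The last group included the stress keratin Krt16 and the type I hair keratins such as Krt31, Krt32 and Krt33a. The spans of Krt10 and Krt78 reach upstream of their annotated start sites. The H3K27me3 peaks of the Krt10 span and the H3K4me3 peaks of the Krt78 span lay in those upstream parts. At Krt1, an H3K4me3 peak of 2.94 kb lay almost wholly within H3K27me3, by 91.6% of its length. H3K27me3 was annotated to all 6 suprabasal epidermal keratins, and to no bulge, basal or stress keratin.

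With age, H3K27me3 at keratins moved in both directions and mostly did not pass the test. Of 19 promoter peaks at 15 keratins, 3 were lower and 1 higher in old cells in the authors' deposited table, where 9.19% of all promoter peaks were lower and 3.14% higher. Of all 66 keratin peaks, 5 were lower and 2 higher in the authors' deposited table, beside 2.6% lower and 2.66% higher over all peaks. The median log2 fold change was -0.27 over keratin promoter peaks and -0.05 over all promoter peaks in the authors' deposited table. The called peaks lay in 3 places, which were the type II hair keratins, the Krt8 and Krt18 domain, and Krt12 with Krt20.

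**Figure D2:**
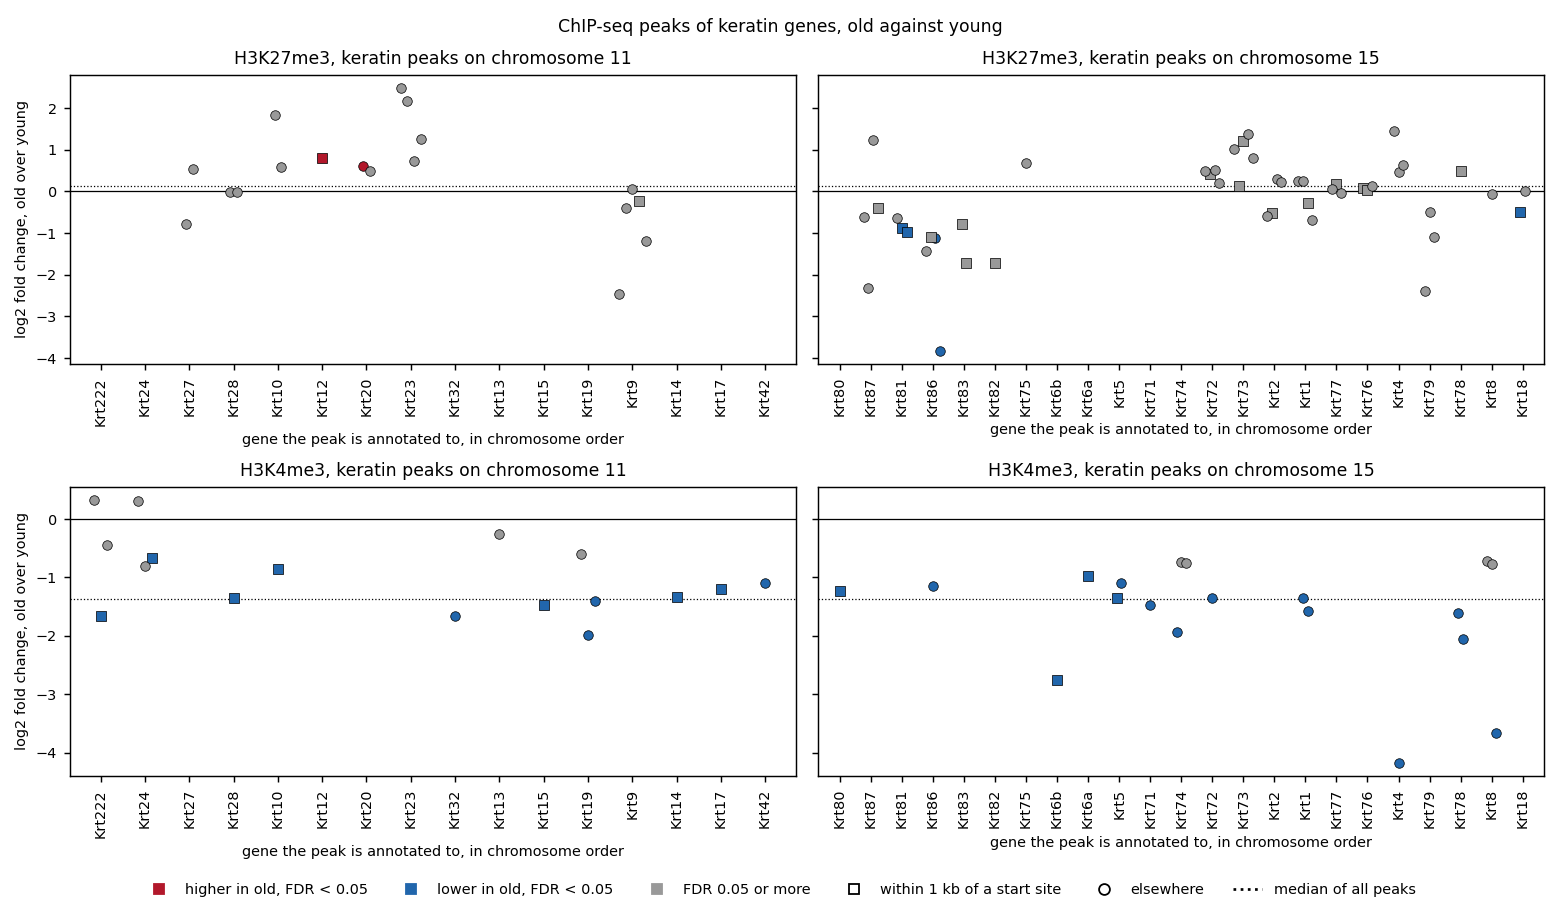
Log2 fold change of old over young (vertical axis) at each H3K27me3 (top) and H3K4me3 (bottom) peak annotated to a keratin, with the genes in chromosome order along the horizontal axis, chromosome 11 left and chromosome 15 right. Red marks peaks higher in old cells and blue marks peaks lower in old cells at FDR under 0.05 in the authors' deposited tables, squares lie within 1 kb of a start site, and the dotted line is the median of all peaks; 2 H3K27me3 peaks are red, at Krt12 and Krt20, and 34 of the 36 H3K4me3 points lie below 0.

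Of the 5 lower H3K27me3 peaks, 4 were at the hair shaft keratins of chromosome 15 in the authors' deposited table. In the stretch from Krt87 to Krt82, 12 of 13 H3K27me3 peaks had a log2 fold change below 0 and 4 were lower in old cells in the authors' deposited table, with a median of -0.97. Over all H3K27me3 peaks of that table, 41.7% were below 0 and 2.6% lower, and this difference was not tested. Krt81, a keratin of the hair cortex, had 2 lower promoter peaks. The first (chr15:101461101-101463419) had log2 levels of 6.63 in old and 7.52 in young cells, a fold change of -0.89 (FDR 0.0274), in the authors' deposited table. The second (chr15:101463746-101465624) had log2 levels of 6.52 in old and 7.50 in young cells, a fold change of -0.97 (FDR 0.0136), in the authors' deposited table. Krt86, its neighbour and also a cortex keratin, had a lower peak just past the promoter window (chr15:101474529-101477613), at log2 levels of 6.72 in old and 7.83 in young cells and a fold change of -1.11 (FDR 0.0109) in the authors' deposited table. A 0.267 kb intron peak of Krt86 was at 1.31 in old and 5.14 in young cells, a log2 fold change of -3.83 (FDR 0.00797), in the authors' deposited table. The peaks of Krt87, Krt83 and the cuticle keratin Krt82 did not pass the test, with log2 fold changes between -2.31 and 1.23 in the authors' deposited table. Among them, the Krt87 promoter peak, 9.06 kb wide, was at -0.39 (FDR 0.13). Another Krt81 peak (-0.64, FDR 0.625), the Krt86 peak at its start (-1.09, FDR 0.739) and the one upstream of it (-1.42, FDR 0.109) did not pass either. Peaks that lie side by side in a run can be parts of 1 marked region and are not independent. The only H3K4me3 peak in this stretch was that of Krt86, which overlapped H3K27me3 by 267 bp, and there was no Pol2 peak.

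The domain over the simple epithelial pair Krt8 and Krt18, keratins of single-layered epithelia, was the widest of the keratins at 51.4 kb (chr15:101995140-102046502), rank 153 in width of 67985 peaks. It reached from the edge of the RefSeq span of Krt78 across Krt8 and Krt18, so that the Krt18 promoter printed above lay within it. It had log2 levels of 12.23 in old and 12.72 in young cells, a fold change of -0.49 (FDR 0.0193), in the authors' deposited table. The narrow H3K4me3 peak near Krt8 that was among the largest falls lay wholly inside this domain.

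H3K27me3 was higher in old cells at the corneal keratin Krt12 and the intestinal and Merkel cell keratin Krt20, which are neighbours on chromosome 11. The Krt12 peak (chr11:99421945-99438291) lay over the start of Krt12 and all of Krt20, with log2 levels of 10.59 in old and 9.79 in young cells and a fold change of 0.80 (FDR 0.0011) in the authors' deposited table. The next peak (chr11:99439396-99458425), upstream of Krt20, had log2 levels of 10.70 in old and 10.09 in young cells and a fold change of 0.61 (FDR 0.0356) in the authors' deposited table. In the whole stretch from Krt27 to Krt23, 12 of 17 H3K27me3 peaks had a log2 fold change above 0, and 3 were higher and 0 lower in the authors' deposited table, with a median of 0.58. Over all H3K27me3 peaks of that table, 57.6% were above 0 and 2.66% higher, at a median of 0.12, so most peaks in this stretch share their sign with most peaks of the genome. Of the 17, 11 were annotated to keratins, and the remaining higher peak to the neighbouring gene A830036E02Rik. The H3K4me3 promoter peaks of Krt28 and Krt10 lay in the same stretch.

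Few H3K27me3 peaks of the remaining groups passed the test, and their signs are to be read against the 57.6% of all peaks above 0 in the authors' deposited table. The 14 peaks of the companion layer and inner root sheath keratins had log2 fold changes above 0 in 11 cases, with a median of 0.50 in the authors' deposited table, and all 7 peaks in the stretch of Krt72 and Krt73 were above 0. The mucosal and corneal keratins were above 0 at 7 of 7 peaks in the authors' deposited table, of which 1, that of Krt12, passed the test. The 19 peaks of the suprabasal epidermal keratins were split, 10 above 0 and 9 below, with a median of 0.05 in the authors' deposited table. The Krt1 promoter peak, 8.53 kb wide, had log2 levels of 9.59 in old and 9.86 in young cells, a fold change of -0.27 (FDR 0.451), in the authors' deposited table. The Krt2 and Krt9 promoters, of late suprabasal cells and of palms and soles, were at log2 fold changes of -0.53 (FDR 0.317) and -0.22 (FDR 0.608) in the authors' deposited table. Krt10 had 2 H3K27me3 peaks upstream of its start, at log2 fold changes of 1.84 (FDR 0.210) and 0.58 (FDR 0.281) in the authors' deposited table, and its H3K4me3 promoter peak was free of them. Krt77 and Krt78, of the upper epidermis, had promoter peaks at 0.17 (FDR 0.742) and 0.48 (FDR 0.580) on the log2 scale of the authors' deposited table. Krt76, a keratin of the palate, was at 0.09 and 0.04 at its promoter, and Krt75, of the companion layer, had a single distal peak at 0.68 (FDR 0.849), as log2 fold changes in the authors' deposited table. The 4 peaks of Krt23 were all above 0, and the highest, in an intron, had log2 levels of 5.55 in old and 3.06 in young cells, a fold change of 2.49 (FDR 0.0665), in the authors' deposited table. The 3 peaks annotated to Krt79, known from the upper follicle and its sebaceous duct in mice, were all below 0, at -2.40 (FDR 0.217), -0.49 (FDR 0.858) and -1.10 (FDR 0.497) on the log2 scale of the authors' deposited table. Those at -0.49 and -1.10 lay upstream of the gene. A peak inside the Krt79 span but annotated to Krt4 was at 0.63 (FDR 0.847), and it is among the 7 of the mucosal and corneal keratins. By chromosome, 2 of 18 keratin peaks on chromosome 11 were higher and 0 lower, and 0 of 48 on chromosome 15 were higher and 5 lower in the authors' deposited table. Over all peaks, 2.66% were higher and 2.6% lower. The median log2 fold change was 0.52 on chromosome 11 and 0.025 on chromosome 15, where 25 peaks were above 0 and 23 below. The called peaks lay in the few places named above, and a difference between the chromosomes was not tested.

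RNA showed 1 keratin past the threshold, the stress keratin Krt16, the type I partner of Krt6a. Its log2 fold change of old over young was 0.75 with a standard error of 0.23, at an adjusted p of 0.0461 (DESeq2) in the authors' deposited table, where 38% of the 597 listed genes were higher and 18.8% lower. Its mean normalized signal of 153 over all libraries ranked 520 of 597 in the authors' deposited table, so it was among the lower listed genes. Krt16 shares much of its coding sequence with Krt14 and Krt17, both keratins of the follicle, so reads that match more than 1 of them make its value uncertain. The immune marker Cd74 was lower in the same RNA comparison (log2 fold change -1.36 in the authors' deposited table), and its part in the Krt16 value was not tested. No H3K4me3, H3K27me3, Pol2 or listed ATAC-seq peak lay over Krt16. The nearest H3K4me3 and Pol2 peaks were those of Krt17, both 6227 bp away, and the nearest H3K27me3 peak was 12842 bp away. In bulk samples, more cells that make a transcript and more transcript per cell cannot be told apart. Krt15, Krt5, Krt14, Krt17 and Krt6a were not among the listed genes, so their RNA levels at either age are not analysed here.

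In open chromatin, all 10 peaks listed with a keratin as the nearest gene had fewer reads in old libraries on average. So did 85.9% of all listed peaks, so the count says little of keratins in particular. Summed over the listed peaks, old libraries held 1572998 to 1946804 reads and young libraries 2456110 to 2773284. On the counts as deposited, without scaling between libraries, 3 of the 10 peaks were lower at FDR under 0.05 by edgeR's quasi-likelihood test with Benjamini-Hochberg adjustment over all 7849 listed peaks, and 46.4% of all listed peaks were. With TMM scaling, which centres the change that most listed peaks share, 0 of the 10 were lower by edgeR's FDR, beside 0.701% of all peaks, and 0 at an unadjusted p under 0.05. DESeq2 with its own size factors also gave 0 at either threshold. No keratin peak was higher under either scaling, beside 5.43% of listed peaks higher without scaling and 13.9% with TMM. The median log2 fold change of all listed peaks was -0.64 without scaling and -0.05 with TMM. The peaks were listed by the authors because they differed between these same libraries, so their FDR values cannot be read as those of peaks chosen beforehand.

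Both of the lowest FDR values were at peaks with Krt80 as the nearest gene. At its peak upstream of the start, at a distance of -2226 bp (chr15:101372351-101374150), the old libraries had 836, 822, 737 and 801 reads and the young libraries 1180, 1484, 1149 and 1117. Every old library was below every young one, with means of 799 ± 43.8 in old and 1232.5 ± 169.6 in young (SD, n = 4 each, edgeR log2 fold change -0.63, FDR 0.0132). With TMM scaling the log2 fold change was -0.04. This peak overlaps the RefSeq gene Gm35853. The next peak lay 31478 bp past the Krt80 start (chr15:101332301-101333100). It is labelled as an intron but lies beyond the RefSeq span of Krt80 and over no RefSeq gene. There the old libraries had 422, 417, 364 and 469 reads and the young libraries 783, 883, 669 and 500. The groups did not overlap here either, with means of 418 ± 42.9 in old and 709 ± 164 in young (SD, n = 4 each, edgeR log2 fold change -0.76, FDR 0.0151, and -0.17 with TMM). The other Krt80 peak (chr15:101388201-101388750), at -18076 bp, overlapped between groups, from 181 to 311 reads in old and from 255 to 419 in young libraries (edgeR FDR 0.0786). It lies over the RefSeq genes Gm35853 and Gm671.

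**Figure D3:**
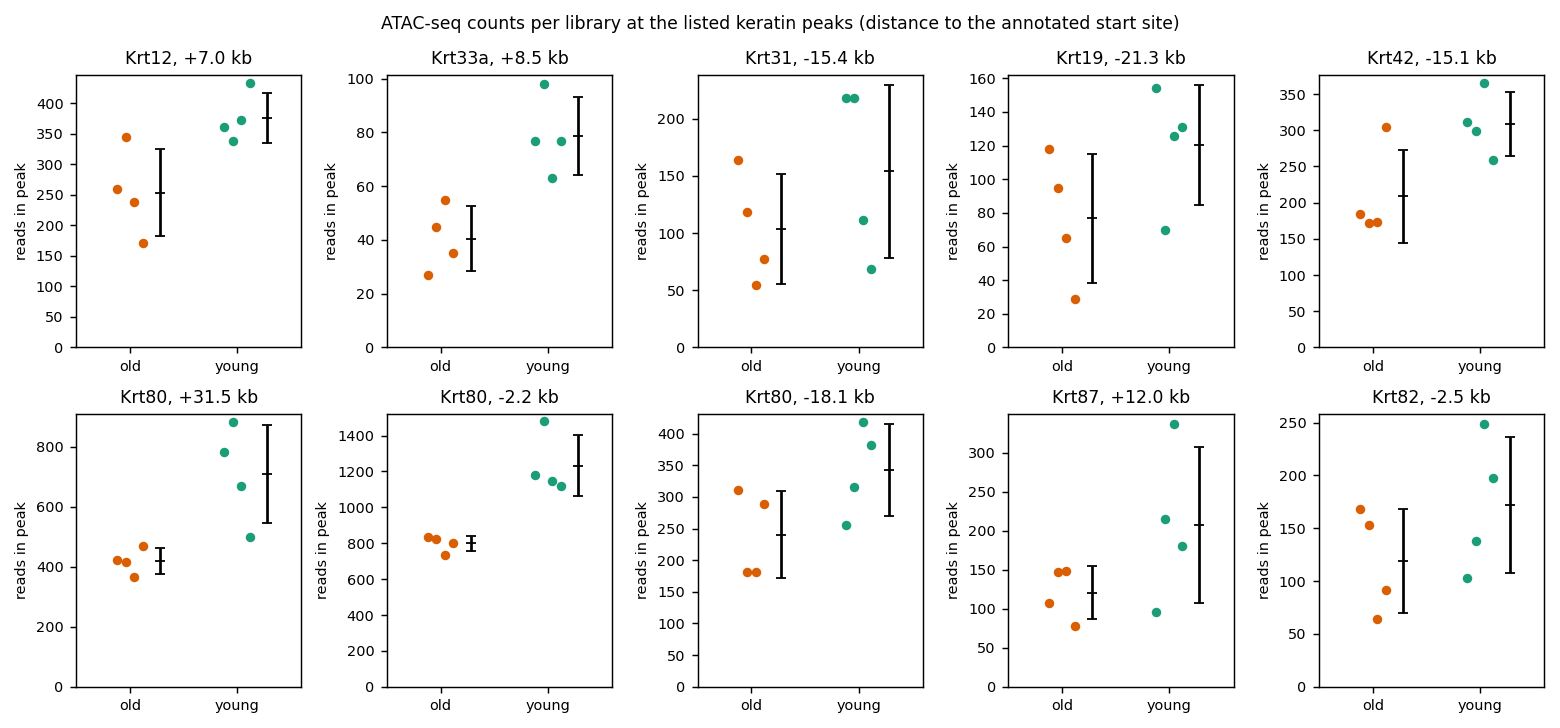
ATAC-seq reads in each library (points) at the 10 listed keratin peaks, with old libraries left of young libraries and the group mean with its SD (n = 4) beside them; each panel names the gene and the distance to its annotated start in kb, and each vertical axis starts at 0. The groups are apart at the Krt33a peak and at 2 of the 3 Krt80 peaks, and they overlap at the other 7.

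The third lower peak lay in the type I hair keratins. Near Krt33a (chr11:100007501-100007700), the old libraries had 27, 45, 55 and 35 reads and the young libraries 77, 98, 63 and 77. The groups did not overlap, with means of 40.5 ± 12.2 in old and 78.8 ± 14.4 in young (SD, n = 4 each, edgeR log2 fold change -0.96, FDR 0.0428, and -0.36 with TMM). The call was lost when any 1 of the 8 libraries was left out, with an edgeR FDR between 0.0518 and 0.0842. Non-overlapping groups with old below young were thus seen at 3 of 10 keratin peaks, beside 35.8% of all listed peaks.

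The groups overlapped at the other 7 peaks. Krt12 had 260, 345, 239 and 171 reads in old and 361, 338, 373 and 434 in young libraries (edgeR FDR 0.0529), and 1 old library exceeded 1 young library. Without old replicate 2 the Krt12 FDR was 0.0380. The peak that the table names Krt83, but whose Ensembl identifier is that of the hair keratin Krt87, lies in an intron of Krt7 and had 108, 147, 149 and 78 reads in old and 96, 215, 337 and 181 in young libraries (edgeR FDR 0.0575). Without young replicate 1, its lowest young library, the FDR was 0.0315. Krt42 had 185, 172, 174 and 304 reads in old and 312, 299, 366 and 259 in young libraries (edgeR FDR 0.0609), and old replicate 4 stood apart from its group. Without that library the FDR was 0.0346. The peaks of Krt19, Krt82 and Krt31 had edgeR FDR values of 0.125, 0.152 and 0.166, with fewest reads in Krt19 at 29 to 118 in old and 70 to 154 in young libraries. Krt82 had 64 to 168 reads in old and 103 to 249 in young libraries, and Krt31 had 55 to 164 in old and 69 to 218 in young libraries. The Krt42, Krt19 and Krt82 peaks overlap the RefSeq genes Gm14206, Gm39022 and Krt90 in that order. Only the Krt19 peak met a keratin ChIP-seq peak, an H3K4me3 peak with a log2 fold change of -0.59 (FDR 0.248) in the authors' deposited table. No listed ATAC-seq peak lay at Krt15, Krt5, Krt14, Krt17 or Krt6a.

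The promoters of genes that anchor and regulate keratins were lower in H3K4me3 too. A list of 12 linkers, which tie keratin filaments to desmosomes and hemidesmosomes, had 21 of 21 H3K4me3 promoter peaks lower at a median log2 fold change of -1.31 in the authors' deposited table, beside 94.3% of all promoter peaks. The largest was at Col17a1, the hemidesmosome collagen, at -2.23 (FDR 0.000369) on the log2 scale of the authors' deposited table. Of their Pol2 promoter peaks 7 of 20 were lower, at a median log2 fold change of -1.33 in the authors' deposited table, beside 79.1% of all Pol2 promoter peaks. The largest was at Plec, a plakin that ties keratin to hemidesmosomes, at -3.37 (FDR 0.000112) on the log2 scale of the authors' deposited table. Perp, a desmosome protein, was the linker in the RNA list, higher in old cells at a log2 fold change of 0.49 (adjusted p 0.00207, DESeq2) in the authors' deposited table. A list of 12 regulators of keratin genes had 12 of 12 H3K4me3 promoter peaks lower at a median of -1.58 in the authors' deposited table, with the largest at Dlx3 (-1.78, FDR 6.21e-08), a homeobox factor of the hair follicle. H3K27me3 was lower at 2 of their 3 promoter peaks, those of Gata3 (-0.67, FDR 3.4e-06), a factor of the inner root sheath, and Lef1 (-0.43, FDR 0.00747), a Wnt effector of the hair shaft, in the authors' deposited table, beside 9.19% of all promoter peaks. Pol2 was lower at 3 of 5, with the largest at Klf5 (-2.80, FDR 0.003) in the authors' deposited table. The 56 keratin-associated proteins, the matrix proteins of the hair shaft, had 7 H3K27me3 promoter peaks, of which 0 passed the FDR and 1 an unadjusted p under 0.05. They had 2 H3K4me3 promoter peaks, both lower, with the larger fall at Krtap11-1 (log2 fold change -2.26, FDR 1.56e-05), and no Pol2 promoter peak in the authors' deposited table.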

How the data were processed

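The 28 libraries were grouped by the age in their sample labels and are biological replicates by the design text of the series. Per the submitters' processing notes, STAR 2.5.2b aligned the RNA reads, featureCounts counted them and DESeq2 1.22.2 compared the ages. The RNA table deposited by the authors stops at an adjusted p-value of 0.1. Per the file headers, it holds the mean normalized signal, the log2 fold change of old over young, its standard error, a Wald score and p-values. For ATAC-seq, BWA 0.7.12 was the aligner per the submitters' processing notes. Its deposited table holds read counts for each peak and library, a log2 ratio of young to old means and a −log10 of the p-value. The peaks in it were selected: none has a deposited −log10 p below 2.00 or a log2 ratio within 0.50 of 0. For ChIP-seq, the submitters' processing notes name BWA 0.7.15, MACS2 2.2.7.1 and DiffBind 2.14.0. Those deposited tables hold group mean log2 levels, their difference (young minus old, turned here to old over young), p-values and an FDR, per the file headers. Positions are on GRCm38, and gene spans and promoters came from RefSeq on GRCm38.p6.

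Only the ATAC-seq counts could be tested anew. They were fitted with edgeR 4.0.16 (quasi-likelihood, two-sided, filterByExpr, which removed no peak) in R 4.3.3 over all listed peaks without scaling. The test was also run on simulated data in which few peaks changed, evenly up and down. The listed peaks were selected for a difference and mostly fall, so that run does not bear on the calls here. TMM scaling, DESeq2 1.42.0, no filter, a replicate block, an FDR of 0.01 and leaving out each library were tried. Replicates differed beyond sampling noise, with a chi-square per degree of freedom of 10.8 for the closest pair. Library depth is unknown for every assay, since the ATAC-seq totals cover selected peaks only. Reads per kb are the deposited group mean level, taken off the log2 scale and divided by the width of the peak. The members, gene groups and lists were chosen with earlier results of these data known. By rule, keratins called in any table, those of the bulge, basal layer and stress group with Krt1 and Krt10, and those with an ATAC-seq peak were named with values. Other keratins without a call were named to account for the members, chosen after their values were seen. From the linker, regulator and keratin-associated lists, genes called for RNA and the largest called change of each table were named, with Lef1 added to complete a count, and from the marker lists those called for RNA. Joins used pandas 2.3.3 in Python 3.11.15, and matplotlib 3.10.9 drew the figures.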

Additional observations from a re-analysis of the deposited data

Results flagged for a closer look

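At the Krt42 ATAC-seq peak (chr11:100285001-100285500), old replicate 4 had 304 reads and the other old libraries 172 to 185, against 259 to 366 reads in the young libraries. The gap of this library to its nearest neighbour was 0.902 of the range of the group, above Dixon's critical value for 4 samples. Among the 20 groups of 4 looked at, 1 stood out in this way, and chance gives about 1 in 20. The edgeR FDR of the peak was 0.0609 with all libraries and 0.0346 without this one.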

How the results depend on the processing

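Of the 3 keratin ATAC-seq peaks lower in old cells, edgeR left 0 with TMM scaling and 0 at an FDR of 0.01; DESeq2 gave 0 with its own size factors and 6 with size factors of 1. Leaving out 1 library gave 2 to 3 lower peaks and 0 higher. With TMM the log2 fold change turned to 0.0088 at Krt12, 0.054 at Krt42, 0.095 at the farthest upstream Krt80 peak (start 101388201) and 0.046 at Krt82. With DESeq2's own size factors it turned to 0.045 at Krt42, 0.086 at that Krt80 peak and 0.035 at Krt82. None of these passed the test, and both scalings centre the shift that most listed peaks share. The replicate block left 2 lower peaks, without Krt33a. Old and young libraries of the same number did not vary together, with correlations of -0.03, -0.11, 0.04 and -0.19, so they share only a number, and 1 of 8 libraries correlated best with its own number. For H3K27me3, 0 of 3 lower promoter peaks passed an FDR of 0.01. Over all keratin peaks 5 were lower and 2 higher, and 2 were higher within 3 kb of a start, in the authors' deposited table. All peaks gave 26 lower for H3K4me3, and an FDR of 0.01 left 1 for Pol2. Centred on all promoter peaks, the median keratin log2 fold change turned to 0.09 for H3K4me3 and 0.64 for Pol2. At an adjusted p of 0.01 (DESeq2), 0 keratins passed for RNA. No error between samples could be given for the ChIP-seq and RNA tables, which hold no values per sample.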
